A study of Homo sapiens with 3 samples.

Results

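The ferritin chains FTL and FTH1 were the members, taken as every row of the 3 deposited A-to-G site lists that carries either gene name. They are 2 of 4245 named genes and hold 47 of 16820 listed positions, 37 in FTL and 10 in FTH1. Both genes were chosen with their editing levels known, so those levels are given as a description, with no test.

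Ferritin is the protein shell in which cells store iron. The heavy chain, encoded by FTH1, carries the ferroxidase center that oxidizes iron on entry, and the light chain, encoded by FTL, favours formation of the mineral core. Translation of both mRNAs is held down by iron regulatory proteins, which bind a hairpin in the 5′ UTR called the iron-responsive element when iron is scarce. Cells of the monocyte and macrophage lineage recycle iron and are known for abundant ferritin.

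The series used HyperTRIBE, in which an RNA-binding protein joined to the hyperactive catalytic domain of the RNA-editing enzyme ADAR marks nearby RNA by A-to-I changes that are read as A-to-G. The host was THP-1, a human monocytic leukemia line, and there were 3 libraries: DDX41-ADARcd (the fusion of the DEAD-box helicase DDX41 with the domain), ADARcd alone (the free domain) and the empty vector. All were transduced with a pGK-GFP retrovirus and harvested for total RNA at day 7. The free domain lacks a targeting protein, and the labels do not say which ADAR gene the domain came from. Each group is a single library, so no spread between replicates exists and comparisons are of the reads of these libraries. The lists hold reads only at selected positions, so the monocytic identity of the cells was not tested here.

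A position enters a list with 1 or more edited reads in the library named first and none among 10 or more reads of the library named second. Library totals are not used here, and depth is given per position. The median over all listed sites was 286 reads in ADARcd alone and 27 in the empty vector, 220 in DDX41-ADARcd and 30 in the empty vector, and 30 in DDX41-ADARcd and 45 in ADARcd alone. Editing levels are edited reads as a percent of all reads there, each with an exact Clopper-Pearson 95% interval, and a count of 0 is given the limit of 3 reads of the depth. Intervals and limits cover counting error only, since PCR copies of a molecule could not be recognised.

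All 47 positions were an A on the annotated mRNA of GENCODE 29 (GRCh38), FTL-201 on the plus strand of chromosome 19 (48965301 to 48966878) and FTH1-201 on the minus strand of chromosome 11 (61964285 to 61967660). None was also listed under another gene name. The sequences below are the sites the results turn on, as 21 bases of mRNA written as DNA, 5′ to 3′, with the edited A in capitals. The first 3 were the most edited FTL sites in ADARcd alone. The last 2 were the best-supported FTH1 sites.
FTL K143R, chr19:48966625-48966645: aagcttatcaAgaagatgggt
FTL Y63C, chr19:48965845-48965865: cgcgagggctAcgagcgtctc
FTL 5′ UTR, chr19:48965476-48965496: ttttgtggttAgctccttctt
FTH1 5′ UTR, chr11:61967454-61967474: agcgccgcgcAgccaccgccg
FTH1 3′ UTR, chr11:61964706-61964726: gcctcgggctAatttccccat
Amino acid changes are those the edit would make in the codon, numbered from the initiator methionine as 1.

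One adenosine of the FTL coding region carried nearly all of the edited reads of the light chain in ADARcd alone. At position 48966635, in exon 4, 11 of 1563 reads were edited in DDX41-ADARcd, 816 of 2370 in ADARcd alone and 0 of 282 in the empty vector. The level was 0.704% (0.352 to 1.26) in DDX41-ADARcd and 34.4% (32.5 to 36.4) in ADARcd alone, with a limit of 1.06% in the empty vector. ADARcd alone was therefore high, at 32.4 times the limit of the empty vector, while the interval of the fusion reached below and above that limit. The edit would change lysine to arginine, K143R. These 816 reads were the highest edited count of the 6413 sites of ADARcd alone, ahead of 414 at the next site, and made up 5.83% of all 14003 edited reads of that list and 91.7% of those of FTL. By level the site was number 7 of that list. In DDX41-ADARcd against the empty vector, it held 11 of the 21 edited reads of FTL, 52.4%.

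The nearest listed adenosines were barely edited. Nearer ones in the sequence printed above were in no list, and their reads are not given here. At 48966631, ADARcd alone had 1 edited read of 2332 (0.0429%), and at 48966638 it had 1 of 2394 (0.0418%). The last of these is the same triplet, aag, in the next lysine codon (K144R). FTL-201 holds 20 A in the context aag, of which 7 were listed for ADARcd alone.

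**Figure D1:**
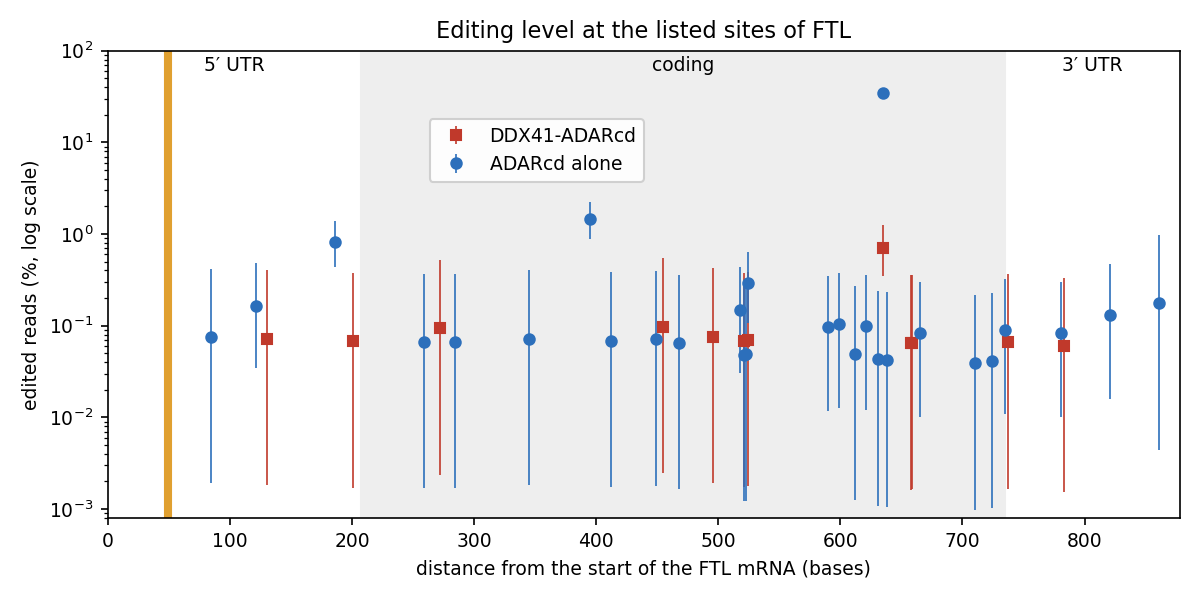
Editing level (percent of reads, log axis) at the listed FTL sites against the distance from the start of the mRNA in bases. Squares are DDX41-ADARcd and circles ADARcd alone, each 1 library, with exact 95% intervals, the coding region is grey and the loop of the iron-responsive element is the orange band. The circle at 34.4% stands alone, and the square at the same place is at 0.704%.

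The other FTL sites of ADARcd alone were low. The list of ADARcd alone against the empty vector held 28 FTL sites, of which 3 lay in the 5′ UTR, 21 in the coding region, 1 in the stop codon and 3 in the 3′ UTR. A site was counted as above its control where the interval of its level lay above the limit of the control, which 0.343% of all sites in the list did. By that count 1 of 28 FTL sites, K143R, was above the empty vector. The list had selected these sites from the same reads, so nothing is read from that count.

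Another 2 sites with 10 or more edited reads lay in the coding region and the 5′ UTR. Y63C at 48965855 had 20 of 1378 edited reads in ADARcd alone (1.45%, 0.889 to 2.23), against 0 of 145 in the empty vector, a limit of 2.07%. The 5′ UTR site at 48965486, 22 bases before the start codon, had 13 of 1601 (0.812%, 0.433 to 1.38), against 0 of 314, a limit of 0.955%. Both have a T before the edited A, and both intervals overlapped the range that the empty vector allows. Neither was listed for DDX41-ADARcd, whose reads at those positions are not analysed here.

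A further 5′ UTR site of FTL was at 48965421, with 3 of 1812 in ADARcd alone (0.166%, 0.0342 to 0.483) and 0 of 340 in the empty vector. Of the 28 FTL sites, 6 had 3 or more edited reads, beside 513 of all 6413 sites of that list. The other 22 FTL sites had 1 or 2 edited reads and levels of 0.0389% to 0.175%. Over the 27 sites besides K143R, 74 of 50097 reads were edited in ADARcd alone (0.148%, 0.116 to 0.185), and 0 of 5924 in the empty vector, a limit of 0.0506%. The zero is a condition of the list. Sites with 2 or more edited reads were 46.4% of the FTL sites, against 25.2% of all sites. FTL was number 12 of 1258 genes by median depth, and its median level of 0.0792% was below the 0.434% of the whole list, since 1 edited read of a deep position is a low level.

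Mismatches to the other 2 bases, which the lists were not selected on, were counted as reads with C or T at the same positions. Whether these mismatches are read errors was not tested. The rate of A-to-G read errors was not measured and may differ from their rate. Over the 27 FTL sites besides K143R, ADARcd alone had 58 reads with C or T (0.116%, 0.0879 to 0.150), beside 74 with G. G exceeded C and T together at 18 of these sites, equalled them at 2 and was below them at 7. The listing guarantees 1 G read at each site and no C or T. At K143R itself 0 of 2370 reads had C or T. At 1 site, 48966621, C and T made up 30 of 2025 reads (1.48%) in ADARcd alone and 3 of 197 (1.52%) in the empty vector, against 2 reads with G, so that mismatch was at like level with and without the enzyme. The reads at this site were 30 of the 58 reads with C or T. Over the 26 sites without K143R and 48966621, ADARcd alone had 28 of 48072 reads with C or T (0.0582%, 0.0387 to 0.0842), beside 72 with G (0.150%, 0.117 to 0.189). That site was set aside after its values were seen.

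**Figure D2:**
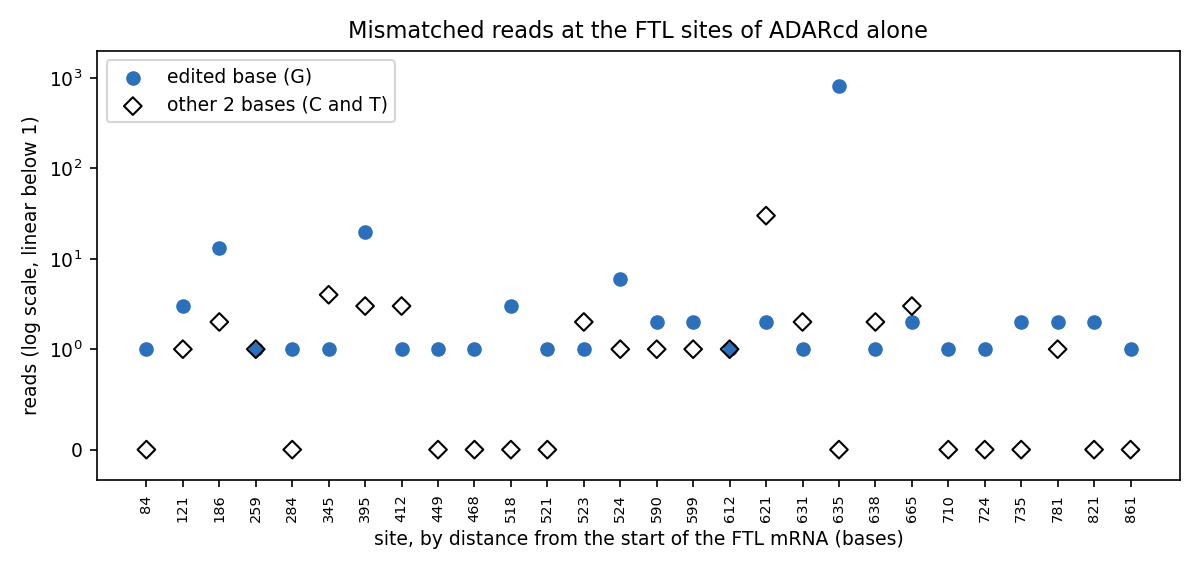
Reads with the edited base (filled circles) and with the other 2 bases (open diamonds) at each of the 28 FTL sites of ADARcd alone, on an axis that is logarithmic above 1, ordered by distance from the start of the mRNA in bases. The edited base reached 816 reads at position 635, where the other bases had 0, and at position 621 the other bases had 30.

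DDX41-ADARcd had 12 FTL sites over its lists, with 1 edited read each at 11 of them. Of all 3516 sites listed for it against the empty vector, 2865 had 1 edited read. Against the empty vector 11 FTL sites were listed and 0 were above the control by the count used above, against 0.0284% of all sites in that list. Their levels were 0.0641% to 0.0976% besides the 0.704% of K143R. Summed over the 10 sites besides K143R, 10 of 13808 reads were edited in DDX41-ADARcd (0.0724%, 0.0347 to 0.133), against 0 of 2405 in the empty vector, a limit of 0.125%. Over all 12 sites C and T made up 5 of 17030 reads in DDX41-ADARcd. Unlike K143R, the other sites of the fusion were thus at the level of single reads.

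Most sites of the fusion were not shared: of all 3516 listed against the empty vector, 402 were also listed for ADARcd alone. Of the 12 FTL sites, 9 were edited in the fusion with 0 edited reads in ADARcd alone. These were 2 in the 5′ UTR (48965430 and 48965501), 2 in the 3′ UTR (48966737 and 48966783) and 5 coding sites: N22S, K83R, M97V, N151D and N151S. Each had 1 edited read in DDX41-ADARcd, of 1025 to 1659 reads, against 0 of 1422 to 2386 in ADARcd alone. Together they had 9 of 12555 in DDX41-ADARcd (0.0717%, 0.0328 to 0.136) and 0 of 17468 in ADARcd alone, a limit of 0.0172%. The listing rule requires 1 or more edited reads of the fusion and none of ADARcd alone at each site. It therefore fixed the 0 and a minimum of 9, so no difference is read from these sums. At the same positions, C or T was read 21 times in ADARcd alone (0.120%) and 2 times in DDX41-ADARcd (0.0159%). By the count of sites used above, 0 of the 9 were above ADARcd alone, against 0.0384% of all sites of that list. N151D and N151S are neighbouring bases of 1 codon.

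The 5′ UTR sites lay downstream of the iron-responsive element. The loop of that element reads CAGTGN, and it was found by its letters on the mRNA strand alone in the first 100 bases of both mRNAs, at bases 47 to 52 of FTL-201 and 71 to 76 of FTH1-201. It is shown in 30 bases of each with the loop in capitals, because it is the regulatory site both mRNAs share.
FTL, chr19:48965335-48965364, plus strand: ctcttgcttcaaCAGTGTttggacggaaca
FTH1, chr11:61967573-61967602, minus strand: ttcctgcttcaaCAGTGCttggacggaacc
These letters occur in the first 100 bases of the 5′ UTR of 11.4% of 15807 coding genes, so a match is a description and not a site. The 5 listed 5′ UTR positions of FTL were 32, 69, 78, 134 and 149 bases after the loop, and that of FTH1 was 121. No listed position fell within the loop in either mRNA. The loop holds a single A in each, and 15.2% of all A of the FTL mRNA were listed for ADARcd alone, so nothing is read from that absence.

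FTH1 had 10 sites and none with a level near that of FTL K143R. Its best-supported site in ADARcd alone was in the 5′ UTR at 61967464, 39 bases before the start codon, with 3 of 256 edited reads (1.17%, 0.242 to 3.39) against 0 of 14 in the empty vector, a limit of 21.4%. In DDX41-ADARcd it was in the 3′ UTR at 61964716, 14 bases past the last sense codon, with 2 of 241 (0.830%, 0.101 to 2.97), against 0 of 408 in ADARcd alone (a limit of 0.735%) and 0 of 11 in the empty vector. The empty vector had 11 to 28 reads at the FTH1 sites, so an editing level of 10% could not be told from 0 at any of them.

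The coding sites of the heavy chain rested on 1 or 2 reads. H152R at 61964824 had 1 of 251 reads in DDX41-ADARcd (0.398%) and 1 of 353 in ADARcd alone (0.283%), and N112D at 61965040 had 1 of 244 in DDX41-ADARcd (0.410%) and 1 of 328 in ADARcd alone (0.305%). The intervals of both libraries overlapped at both. E108G, E62G and the synonymous Q59Q had 1 edited read each in DDX41-ADARcd, of 236 to 245 reads, against 0 of 276 to 326 in ADARcd alone. N112S had 2 of 335 reads in ADARcd alone, and K88R and Q76Q had 1 read each there.

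Summed over its listed sites, FTH1 had the same order of level in both transduced libraries. The listing rule gives each site at least 1 edited read, and 5 sites in DDX41-ADARcd and 4 in ADARcd alone had just that. At like depths this alone makes the sums alike, so the likeness is not read as equal editing. It had 7 of 1455 reads in DDX41-ADARcd (0.481%, 0.194 to 0.989; 6 sites) and 9 of 1913 in ADARcd alone (0.470%, 0.215 to 0.891; 6 sites), on site sets of which 2 were shared. No FTH1 site was above its control in any list. Sites with 2 or more edited reads numbered 1 of 6 in DDX41-ADARcd, against 18.5% of all sites in that list, and 2 of 6 in ADARcd alone.

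**Figure D3:**
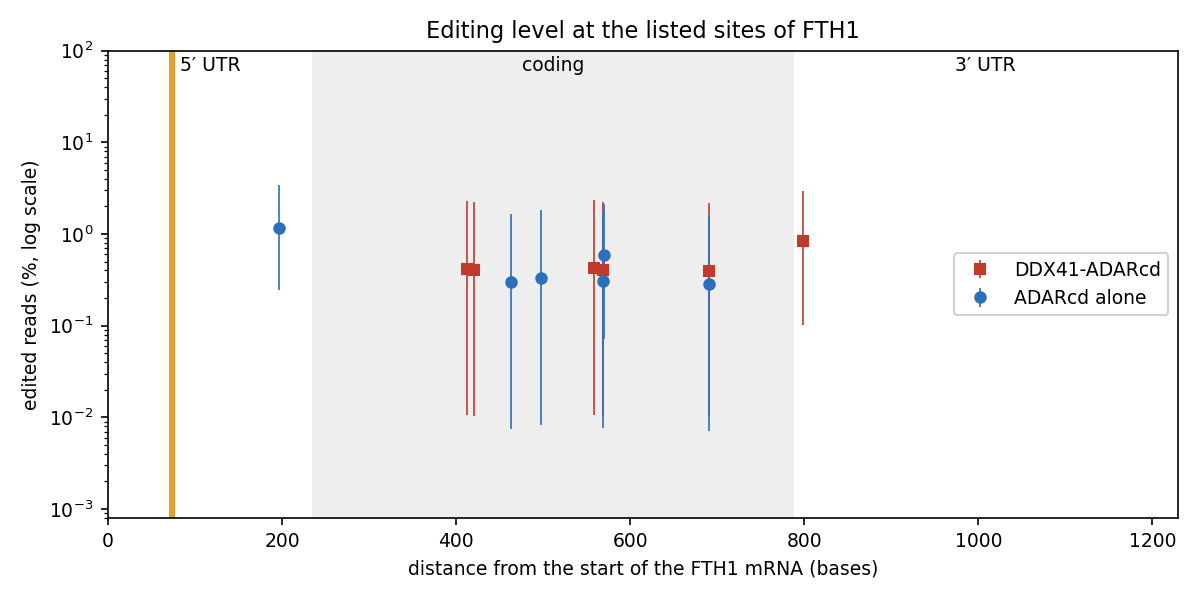
Editing level (percent of reads, log axis) at the 10 listed FTH1 sites against the distance from the start of the mRNA in bases. Squares are DDX41-ADARcd and circles ADARcd alone, each 1 library, with exact 95% intervals, the coding region is grey and the loop of the iron-responsive element is the orange band. All levels lie between 0.283% and 1.17%, with intervals that overlap.

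Between the transduced libraries, FTL K143R was lower in the fusion. Of the 402 positions listed against the empty vector for both libraries, 3 were in FTL and 2 in FTH1. At K143R the interval of DDX41-ADARcd (0.352 to 1.26) lay below that of ADARcd alone (32.5 to 36.4), as at 8.46% of the 402 positions, and no position of the 402 lay above. The level in ADARcd alone divided by that in DDX41-ADARcd was 48.9 (27.1 to 88.4, log-scale interval of counting error). Positions with few edited reads have wide intervals, so 8.46% is not the share among positions as well supported as K143R. For the 37 positions with at least 10 edited reads and 5% in ADARcd alone, the median ratio was 9.1 (range 0.831 to 96.1). K143R was number 2 of these by that ratio, and a lower level in the fusion was common among them. These positions were chosen by a high level in ADARcd alone, which by itself raises the ratio. The median is therefore not a neutral background. Depth at K143R in DDX41-ADARcd was 0.659 times that of ADARcd alone, and the median ratio over 527 genes was also 0.659. At listed sites of ADARB1 the median depth ratio was 0.217 (5 sites), of ADAR 0.714 (9 sites) and of DDX41 6.93 (23 sites). Whether the amount of editing enzyme differed between the libraries was not tested, and the K143R ratio is not corrected for it. At the other 4 shared ferritin sites the intervals overlapped.

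The sites most like FTL K143R by their pair of levels were in RPS3A, EEF1A1, NUCKS1, PKM and RPS2, by distance of the log2 levels in both libraries over 145 genes with a shared site of 100 or more reads. RPS3A, of the small ribosomal subunit, had 0.390% in DDX41-ADARcd and 37.5% in ADARcd alone. EEF1A1, the elongation factor, had 0.403% in DDX41-ADARcd and 17.8% in ADARcd alone. PKM, the pyruvate kinase, had 1.79% in DDX41-ADARcd and 41.6% in ADARcd alone. FTH1, represented by H152R, was farther from FTL than 84 of these genes. The likeness rests on 2 libraries and was measured on the levels for which FTL was chosen.

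**Figure D4:**
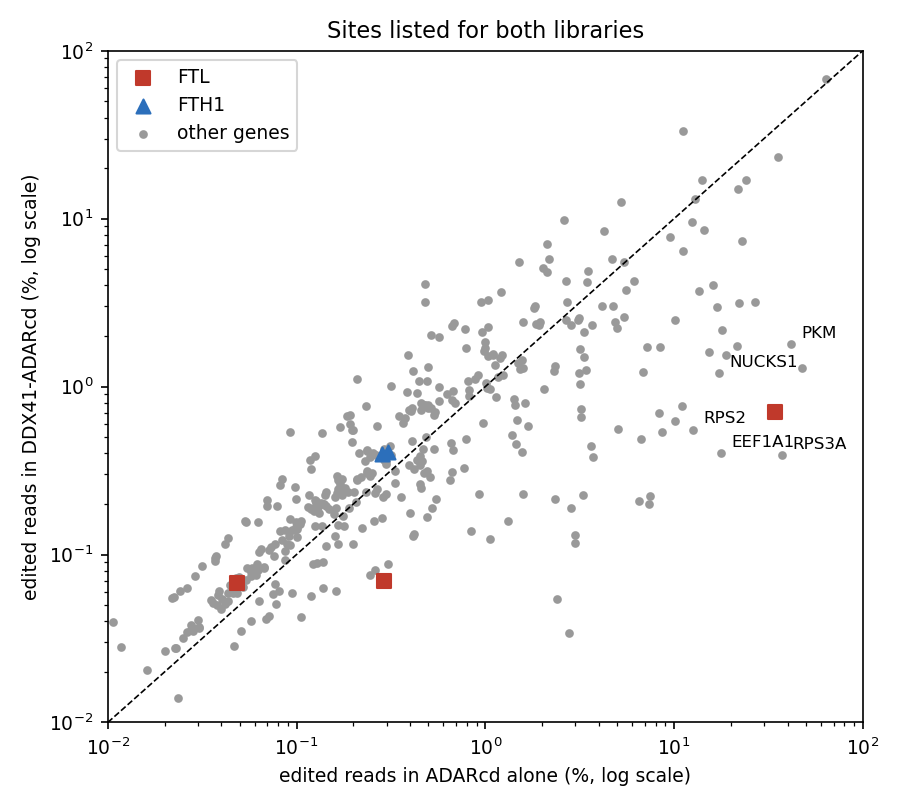
Editing level in DDX41-ADARcd against that in ADARcd alone (percent of reads, both axes logarithmic) at the 402 positions listed for both, with FTL as squares, FTH1 as triangles and the dashed line marking equal levels. FTL K143R lies at 0.704% in DDX41-ADARcd and 34.4% in ADARcd alone, far below the line with the labelled genes, and both FTH1 sites lie near it.

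Read depth at the listed positions followed the other genes for FTL and was higher for FTH1 in the transduced libraries. The median ratio of DDX41-ADARcd to ADARcd alone was 0.721 over 9 FTL sites (range 0.653 to 0.865) and 0.793 over 4 FTH1 sites (0.591 to 0.863). The median of 527 genes with 5 or more sites was 0.659, with a 5th to 95th percentile of 0.488 to 0.876, and both chains fell inside it. Against the empty vector FTL was at 6.17 in DDX41-ADARcd (median of 220 genes 6.13) and 9.30 in ADARcd alone (median of 414 genes 8.95). FTH1 was at 15.7 in DDX41-ADARcd, above 96.8% of those genes, and 14.9 in ADARcd alone, above 91.5% of them. The FTH1 ratios rest on 11 to 28 reads of the empty vector and ranged from 8.43 to 21.9 over its 6 sites in the first of these. The ratios are of raw reads without library totals, so they also hold any difference in total reads between libraries. In bulk RNA, fewer cells and less RNA per cell cannot be told apart either.

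Depth itself differed between the chains. FTL sites had 1025 to 1659 reads in DDX41-ADARcd and 572 to 2573 in ADARcd alone, and FTH1 sites had 236 to 251 in DDX41-ADARcd and 256 to 353 in ADARcd alone. GENCODE 29 names 16 FTL and 25 FTH1 processed-pseudogene loci by the patterns FTLP and FTH1P, none of which had a listed row. The 21 bases around the site recurred in another gene at 20 of 37 FTL sites and 8 of 10 FTH1 sites, and the sources used here do not say how reads with several matches were counted. The part of such reads in the depth was not tested. The 21 bases of K143R recurred in no other annotated transcript, and for none of the 47 sites did another transcript hold them with G at the site.

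**Figure D5:**
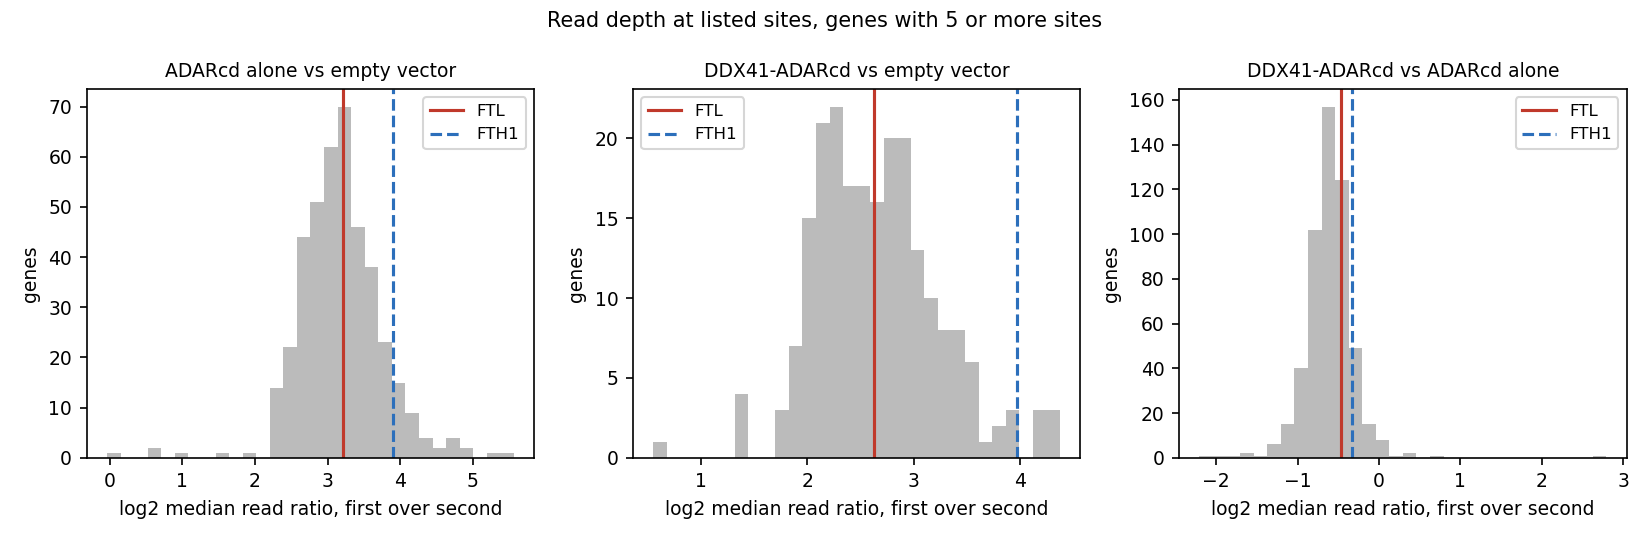
Histograms of the log2 median read ratio per gene at listed sites, for genes with 5 or more sites, in the 3 comparisons, with FTL as a solid and FTH1 as a dashed line. FTL lies near the middle in both comparisons with the empty vector and FTH1 towards the upper end.

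In ADARcd alone, the 3 FTL sites with at least 10 edited reads had the triplets tAc, tAg and aAg. Over all sites of that list with 10 or more edited reads, these 3 included, T came before the edited A at 44.2% and A at 36.3%, and G after it at 54.0% (113 sites with a sequence). Over all 184 A of the FTL mRNA, T comes before at 10.9% and A at 28.3%, and G after at 31.5%. The triplet tag did not go with a high level at the 3 listed of its 4 places in FTL. That of the 5′ UTR had 0.812% in ADARcd alone, the synonymous L135L had 1 of 2044 reads, and that at 48966783 had 0 of 2377. The place at 48966817 was in no list. For ADARcd alone 2 of the 4 were listed, beside 15.2% of all A of the FTL mRNA, too few to read a preference. FTL coding sites would change the amino acid at 22 of 26 positions, and FTH1 coding sites at 6 of 8. The share over all coding A was not computed, so no preference is read from these counts.

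The other listed genes of iron handling had at most 2 edited reads at their most edited sites. A list of 36 genes for uptake, storage, export, heme and iron-sulfur cluster synthesis included both chains, and 13 of the 36 had a listed site in any list. Against the empty vector, 4 were listed for DDX41-ADARcd and 5 for ADARcd alone: FTL, FTH1, NCOA4 and PCBP2 in both, and PCBP1 in ADARcd alone. All listed genes were 957 for DDX41-ADARcd and 1258 for ADARcd alone. NCOA4, the receptor that delivers ferritin to autophagy, had 1 of 64 reads at its best site in DDX41-ADARcd and 2 of 60 in ADARcd alone. PCBP1 and PCBP2, which hand iron to ferritin, had no site with more than 2 edited reads. Genes with a site above the control were 0 of 4 for DDX41-ADARcd, against 0.104% of all listed genes, and 1 of 5 for ADARcd alone (FTL), against 1.35%. FTL was chosen with its level known, and no other listed iron gene had such a site, so nothing is read from that count.

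In the list of DDX41-ADARcd against ADARcd alone, 13 of the 36 genes had a site, among 4036 listed genes in all, and 0 were above the control, against 0.0991% of all listed genes. TFRC, the transferrin receptor, had 2 of 26 reads in DDX41-ADARcd against 0 of 40 in ADARcd alone. IREB2, an iron regulatory protein, had 2 of 29 against 0 of 43, and FBXL5, the ligase subunit that marks it for degradation, 2 of 15 against 0 of 43. SLC39A8, SLC39A14, SLC40A1, ALAS1 and NFS1 had 1 or 2 edited reads at their best sites. At these depths differences of this size were not detectable.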

How the data were processed

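The authors deposited 3 tables of A-to-G sites. Per the file headers these hold counts of reads with each base at 1 position in each of 2 libraries, which the authors did not normalize. The submitters' processing notes give STAR 2.5, FastQC 0.11.7, CASAVA 1.4 and, as build, mm10 of the mouse, without saying what each was used for. The site caller was not given in the sources used here. Positions were placed on human GENCODE 29 (GRCh38). Column names do not identify libraries: the first one in the title of each table was read as edited and the second as its control. Each library was grouped by the transgene in its label.

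Positions repeated for overlapping genes were joined for counts of sites and kept per gene for counts of genes. Exact intervals came from SciPy 1.17.1 and folds from RNAfold 2.7.2. No p-value was computed, since 1 library per group and the listing rule leave nothing independent to test. Depth per position and its limits are given with the results.

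Members, the iron gene list and alternatives were chosen with earlier results of these data known. Sites were named with 3 or more edited reads, in 2 or more lists, or above the control, except for 1 stretch of the FTL coding region, which is not reported here. Besides these, the neighbours of K143R, the sites of the tag triplet, FTL 48966621, FTL 48966783 and the 3 remaining FTH1 sites were named after their values were seen. Genes like FTL were the 5 nearest by log2 level. Alternatives were the interval method, the control limit, halved reads, minimums of edited reads and depth, leaving out the most edited site, and summed depth.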

Additional observations from a re-analysis of the deposited data

How the results depend on the processing

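Of 54 alternatives computed, 49 gave a value inside the interval or the spread of the one reported, or a count within 1.5 times, and 5 did not. Of these, 4 were the level of FTL summed over its listed sites, and 1, chosen after seeing the data, was the share of reads with C or T without 48966621, which was 0.0582% against 0.116% with it. The FTL level was 0.137% in DDX41-ADARcd and 1.70% in ADARcd alone against the empty vector. It was 0.0724% in DDX41-ADARcd and 0.148% in ADARcd alone without the most edited site, K143R, and 0.704% in DDX41-ADARcd and 3.39% in ADARcd alone over sites with at least 2 edited reads, by construction in both cases. For FTH1, sites with at least 2 edited reads gave 0.830% in DDX41-ADARcd and 0.846% in ADARcd alone against the empty vector, where all listed sites gave 0.481% in DDX41-ADARcd and 0.470% in ADARcd alone, and 0.830% in DDX41-ADARcd against ADARcd alone, where all gave 0.521%, inside the wide intervals of the reported values. The counts of sites above the control and of shared sites with separate intervals were the same under each alternative run. A minimum of 50 reads in both libraries left no FTH1 site against the empty vector, and a minimum of 2 edited reads left no FTL site of DDX41-ADARcd against ADARcd alone and no shared FTH1 site, so those were not run. Leaving out a replicate was not possible. No paired analysis was possible because each group has 1 library. The depth of the empty vector, 11 to 28 reads at FTH1 sites, limits what can be said of FTH1.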

Other observations

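The predicted fold of the whole FTL mRNA (minimum free energy) left the edited A of K143R unpaired, as did folds of 101, 201 and 301 bases around it. In the whole-mRNA folds 23 of the 37 listed FTL positions (62.2%) and 9 of the 10 of FTH1 were unpaired, beside 51.1% of all 184 A of the FTL mRNA and 55.6% of all 315 A of the FTH1 mRNA. The folds are predictions from sequence alone, and no structure was measured.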
